A study of Mus musculus with 4 samples.

Results

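The 10 genes described here encode the main signalling receptors for the activins, bone morphogenetic proteins (BMPs) and transforming growth factor beta (TGF-beta), out of 32285 genes in the deposited matrices. They are taken by gene symbol, as a list set with earlier results of these data known: 6 type I receptors (Acvr1, Acvr1b, Acvr1c, Bmpr1a, Bmpr1b and Tgfbr1) and 4 type II receptors (Acvr2a, Acvr2b, Bmpr2 and Tgfbr2), and all 10 symbols were found. Each gene was followed through the nuclei of the mouse lateral septum (LS), a forebrain region of inhibitory neurons, in 4 single-nucleus RNA libraries. The libraries were 2 of the inbred strain C57BL/6JNifdc (called C57J), 1 of BALB/c nude mice, which lack T cells and carry the BALB/c background, and 1 of BALB/c mice. Every library came from brain tissue of male animals aged 6 to 8 weeks, perfused with saline, with the tissue of several mice of a strain pooled into a single sample. The p-values between strains therefore measure the spread between libraries and not between animals. Those between groups of nuclei, fitted with the library as a term, measure how the differences vary over the same 4 libraries, again not between animals. Nude and BALB/c have 1 library each, and strain, immune status and any other difference between these colonies cannot be told apart.

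Ligands of this family are dimers that bring together type I and type II receptors, both of which are serine/threonine kinases. The type II receptor phosphorylates the type I receptor, which then phosphorylates Smad proteins: the TGF-beta and activin branch uses SMAD2 and SMAD3, the BMP branch SMAD1, SMAD5 and SMAD9. In the brain TGF-beta is known for keeping microglia in their adult state, BMPs for promoting astrocyte over oligodendrocyte fate, and activins for actions on neurons and on myelin repair.

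Levels are given as CPM (counts per 1000000): the unique molecular identifiers (UMIs, counted RNA molecules) of the gene, scaled by all UMIs of that group of nuclei in that library. Where 4 values follow each other, they are those of both C57J libraries (C57J 1 then C57J 2), then nude, then BALB/c. Since UMIs were counted from the 3′ end and are not per length, levels are compared between cell classes for 1 gene and never between genes. The libraries held 12558 to 17025 barcodes and 72912922 to 125998527 UMIs, and 49425 nuclei were kept. Classes were built here from marker genes, so a class name stands for nuclei resembling that type by its markers, with the 10 receptors and 76 further genes of the pathway left out of the clustering, which used other genes of the same nuclei. Since the names came from these markers, the marker sums do not test the names. Microglia markers summed to between 3111 and 5977 CPM in microglia against between 57.8 and 108 CPM in oligodendrocytes (OLs). The BALB/c library stood apart, as the deepest and in its glial subclusters. It held 846 of the 889 nuclei of OL 7 and 785 of the 864 of astrocyte 9, but 30 of the 2532 of OL 0 and 48 of the 1861 of astrocyte 3. C57J 1 was a batch of its own per the labels, with the other libraries in the other batch, and pairs of libraries shared between 29 and 63 barcodes.

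The first question was in which cells each receptor was detected. The orders of classes given here are among the 10 classes with at least 20 nuclei in every library; rarer and unnamed groups were not tested, and some of them had higher levels. In these 10 classes, each against the mean of the log levels of the other 9, 32 of 100 receptor-by-class contrasts were called by edgeR's quasi-likelihood test (Benjamini-Hochberg adjusted p below 0.05 and a log2 change beyond 0.5), 19 higher and 13 lower. Over all genes, 30.3% of such contrasts were called (16.5% higher, 13.8% lower), so the receptors as a list were called about as often as other genes. By gene the calls ran from 0 for Bmpr2 to 6 for Tgfbr1. By class, 5 of the 10 receptors were called in LS neurons (42% of all genes), in astrocytes (35%) and in striatal neurons (34%), and 3 in medial septal neurons (41%), microglia (34.4%), dividing cells (25.8%), newly forming OLs (20.1%) and neuroblasts (15.6%). There were 2 in OLs (34.1%) and 0 in OL precursors (OPCs; 21.3%). Type I receptors gave 13 higher and 9 lower calls of 60, and type II receptors gave 6 higher and 4 lower of 40. The heat map of class means shows 3 strong blocks of higher levels: Tgfbr1 and Tgfbr2 in microglia, and Bmpr1b in astrocytes.

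**Figure D1:**
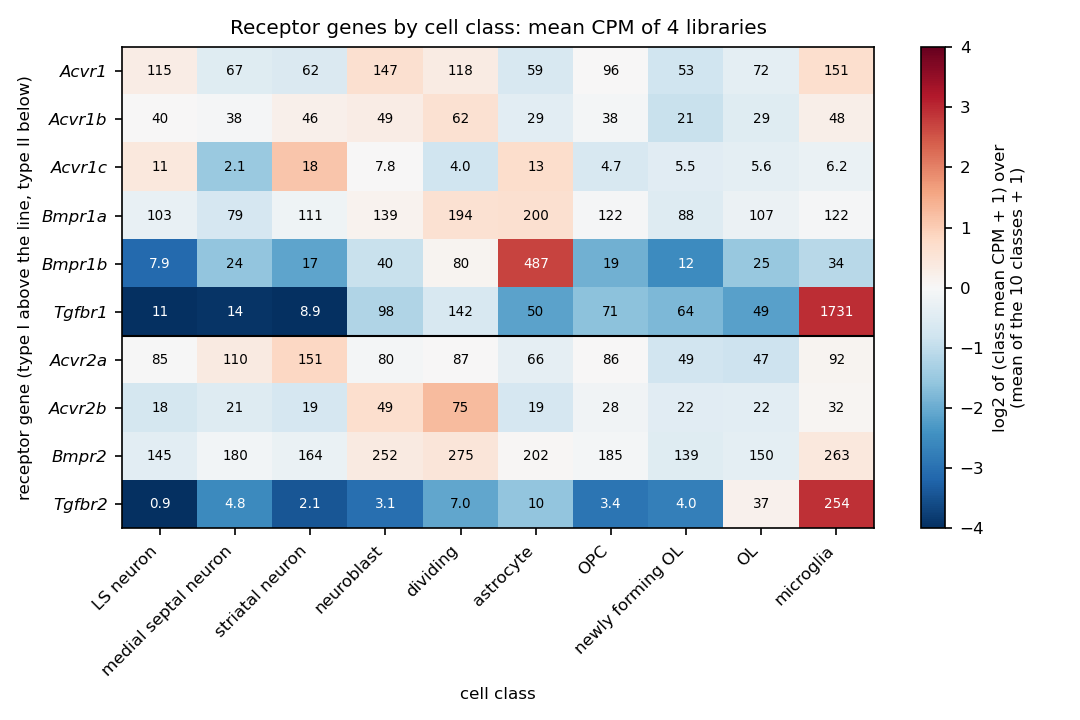
Heat map of the class means of each receptor gene (rows, log2 relative to the gene's mean over the classes) in each cell class (columns). The colour is clipped at 4 in either direction. The edgeR log2 change against the mean of the other classes is a different measure. By that measure Tgfbr1 (5.19) and Tgfbr2 (5.59) in microglia and Bmpr1b (4.54) in astrocytes stand out, while Bmpr2 stays between -0.44 and 0.31.

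Tgfbr1, the type I receptor for TGF-beta, was highest in microglia of the 10 classes, at 1721, 1272, 1308 and 2625 CPM (mean 1731 ± 630 SD, n = 4 libraries), against a mean of 56.4 CPM over the other classes. All 4 microglia values lay above every value of the other 9 classes, and the log2 change was 5.19 (SE 0.0950, edgeR adjusted p = 5.84e-34). C57J 1 and BALB/c had higher microglial levels than C57J 2 and nude. A Tgfbr1 UMI was found in 86.0% (exact 95% interval 81.8 to 89.5), 74.1% (69.5 to 78.3), 76.9% (72.1 to 81.4) and 95.9% (93.0 to 97.9) of microglia at median depths of 1754, 1316, 1409 and 2654 UMIs, and in 74.1%, 68.9%, 68.2% and 85.3% after thinning each nucleus to 1000 UMIs. Here and below, thinning left out the nuclei with fewer UMIs than that, which were 3, 59, 38 and 1 of the microglia. In the deeper LS neurons, with medians of 6407.5 to 12712 UMIs, 7.15% to 9.42% had one.

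Neurons held the least Tgfbr1. In LS neurons it was at 11.5, 11.4, 13.0 and 8.71 CPM, a log2 change of -2.39 (SE 0.149, edgeR adjusted p = 1.65e-16). Medial septal neurons were at 14.8, 13.7, 16.1 and 11.2 CPM (-2.09) and striatal neurons at 8.63, 8.75, 12 and 5.99 CPM (-2.81), both called lower and overlapping with LS neurons. Between neurons and microglia lay the glia and the immature cells: OLs at 48.0, 49.7, 46.1 and 53.0 CPM, astrocytes between 45.8 and 53.3 CPM and OPCs between 65.3 and 77.0 CPM, none of them called. Dividing cells (106, 120, 167 and 175 CPM, log2 1.11) and neuroblasts (92.5, 88.1, 89.2 and 121 CPM, log2 0.73) were called higher, with edgeR adjusted p of 3.01e-06 and 0.00203 against the mean of log levels; the arithmetic mean of the other classes, raised by microglia, lay above both. In the order of class means, gaps with no shared values lay between microglia and dividing cells, between neuroblasts and OPCs, and between OLs and medial septal neurons, while other neighbours overlapped.

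Tgfbr2, the type II receptor that captures TGF-beta, was also highest in microglia of these classes, which held 254, 307, 140 and 314 CPM (mean 254 ± 80.5 SD, n = 4 libraries), against a mean of 8.02 CPM over the other classes. Again no value of the other 9 classes reached the microglial range, the nude library being the lowest of the 4, and the log2 change was 5.59 (SE 0.348, edgeR adjusted p = 8.22e-17). LS neurons were nearly without it, at 0.683, 1.05, 1.18 and 0.547 CPM, resting on 32, 38, 52 and 33 UMIs. That was called lower (-3.11, SE 0.726, edgeR adjusted p = 0.000329), but without C57J 1 the adjusted p was 0.0559. Astrocytes were at 7.36, 10.5, 10.6 and 12.7 CPM and OPCs at 2.50, 6.73, 3.04 and 1.44 CPM, neither called. OLs were called higher (log2 2.64, SE 0.389, edgeR adjusted p = 3.7e-07), a result that rested on the nude and BALB/c libraries and is taken up with the strains. Without the BALB/c library the OL change was 1.49 (edgeR adjusted p = 0.00554).

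Because both parts of the TGF-beta receptor peaked in the same class, their promoters are shown, as the 250 bases upstream of each RefSeq transcript start (build GRCm38.p6, 5′ to 3′ on the gene's strand). Capitals mark GAGGAAG, a core bound by ETS factors including PU.1, the myeloid factor of microglia, searched on both strands. It is a match of letters only.
Tgfbr1, chr4:47352972-47353221, plus strand: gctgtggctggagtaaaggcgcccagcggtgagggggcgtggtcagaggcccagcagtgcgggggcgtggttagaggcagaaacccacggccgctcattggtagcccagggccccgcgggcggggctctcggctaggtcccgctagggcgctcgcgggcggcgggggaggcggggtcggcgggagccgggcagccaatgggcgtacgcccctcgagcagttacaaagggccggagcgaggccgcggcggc
Tgfbr1, second start inside the gene, chr4:47385966-47386215, plus strand: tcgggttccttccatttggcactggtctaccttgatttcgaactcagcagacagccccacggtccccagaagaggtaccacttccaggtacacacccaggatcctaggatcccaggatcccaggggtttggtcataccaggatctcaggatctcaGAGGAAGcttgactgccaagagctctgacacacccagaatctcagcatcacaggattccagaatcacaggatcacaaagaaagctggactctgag
Tgfbr2, chr9:116175364-116175613, minus strand: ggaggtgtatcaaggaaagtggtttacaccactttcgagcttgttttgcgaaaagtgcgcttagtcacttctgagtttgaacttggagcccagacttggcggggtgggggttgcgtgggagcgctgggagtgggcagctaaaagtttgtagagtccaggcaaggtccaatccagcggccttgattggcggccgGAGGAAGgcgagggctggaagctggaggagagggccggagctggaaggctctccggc
The 10 genes had 14 such windows among 32851, and the motif was in 2 of the 14, the inner Tgfbr1 start and Tgfbr2, against 10.6% of all windows. The outer Tgfbr1 window held 29 CG dinucleotides, the inner one 3 and that of Tgfbr2 12, against a median of 6 over all windows. The Smad palindrome GTCTAGAC was in none of the 14 windows (0.167% of all), and the GC-rich Smad core GGCGCC was in 3, those of Bmpr1a, Bmpr2 and the outer Tgfbr1 start (9.59% of all).

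**Figure D2:**
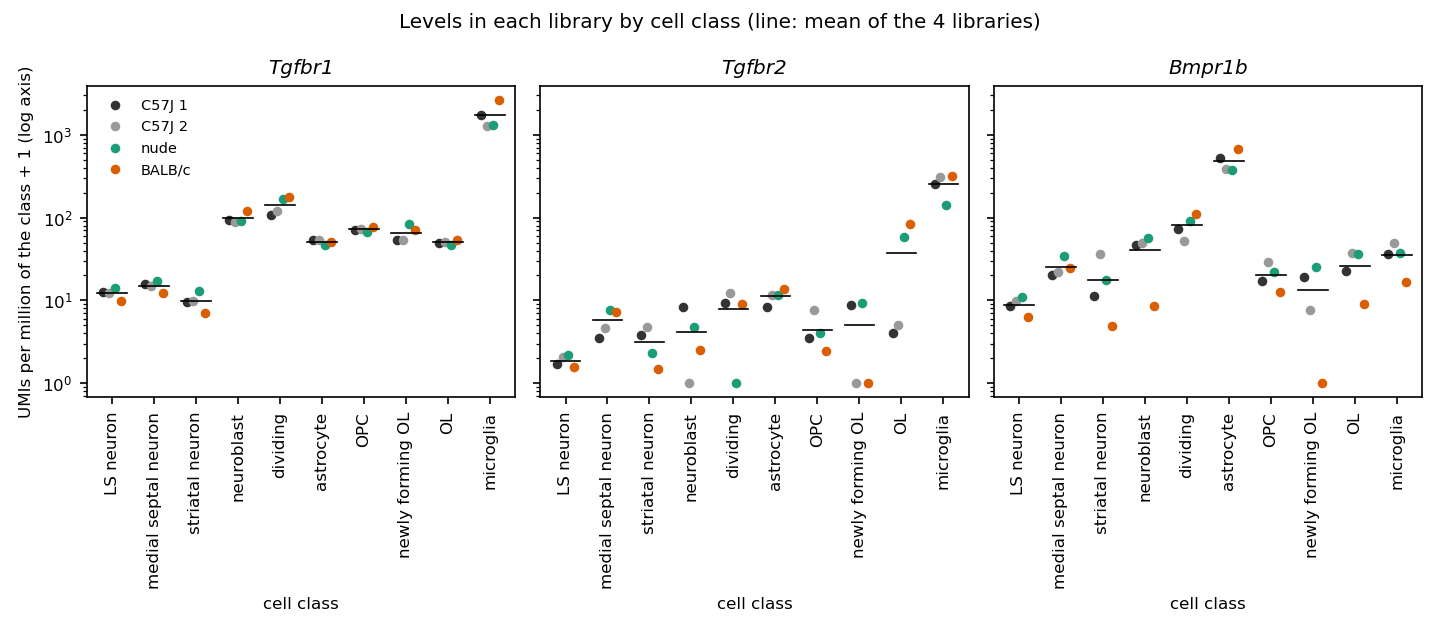
Level of Tgfbr1, Tgfbr2 and Bmpr1b in each class (log axis, CPM + 1), each point a library and each bar the mean of 4. Microglia exceed all other classes for Tgfbr1 and Tgfbr2, astrocytes do for Bmpr1b, and the 2 BALB/c background libraries part from the C57J libraries for Tgfbr2 in OLs.

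Bmpr1b, a type I BMP receptor, marked astrocytes. It reached 518, 388, 372 and 671 CPM there (mean 487), against a mean of 28.9 CPM elsewhere. No other class overlapped with astrocytes, and the log2 change was 4.54 (SE 0.187, edgeR adjusted p = 1.17e-22). A UMI was present in 66.6% (exact 95% interval 64.5 to 68.6), 48.7% (46.4 to 51.1), 48.1% (45.8 to 50.5) and 87.9% (86.3 to 89.4) of astrocytes, at median depths of 2675, 1956.5, 2059 and 4314 UMIs (36.8%, 30.6%, 28.7% and 44.8% at 1000 UMIs). At 1000 UMIs the shares were 0.537% to 1.07% of LS neurons, 1.71% to 4.57% of microglia and 0.866% to 4.21% of OLs. The summed astrocyte markers were at 1499, 971, 1339 and 729 CPM in OLs, against between 9971 and 13875 CPM in astrocytes, and the part of such RNA in the low Bmpr1b levels was not tested. Dividing cells had 72.8, 51.3, 88.9 and 109 CPM (log2 1.38, SE 0.400, edgeR adjusted p = 0.00719), a call lost without the BALB/c library (0.85, edgeR adjusted p = 0.150). LS neurons (7.51, 8.69, 9.91 and 5.35 CPM) and striatal neurons (10.2, 35.6, 16.5 and 3.84 CPM) were called lower, by edgeR adjusted p of 3.03e-07 and 0.0123. The striatal Bmpr1b call was lost without C57J 1 (-0.69, edgeR adjusted p = 0.218) or without nude (-0.90, edgeR adjusted p = 0.0617).

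All 5 astrocyte subclusters carried Bmpr1b, with means between 385 and 538 CPM. The subcluster led by Dkk3 had 452, 284, 298 and 589 CPM, the lowest of the 5 in C57J 2 and nude and between the others in C57J 1 and BALB/c. Of these subclusters, astrocyte 9 was mostly and astrocyte 3 hardly from BALB/c. In each of the 5, the highest of the 4 values was that of the BALB/c library. Its astrocytes were also the deepest, with a median of 4314 UMIs, and the part of depth in these levels was not tested.

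Bmpr1a, the more broadly used type I BMP receptor, was also highest in astrocytes among the 10 classes, at 197, 189, 187 and 228 CPM (mean 200.2), against a mean of 118 CPM elsewhere. This was its only call (log2 0.79, SE 0.0636, edgeR adjusted p = 1.28e-13). Dividing cells, at 157, 194, 199 and 228 CPM, overlapped with astrocytes. LS neurons held 99.6, 102, 103 and 106 CPM, a spread of a few CPM across strains, and medial septal neurons the least, 86.9, 73.7, 77.8 and 79.5 CPM.

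Acvr1, a type I receptor used by BMPs and by activin-bound complexes, was spread over all classes. LS neurons had 106, 113, 121 and 120.1 CPM (mean 115), against a mean of 91.7 CPM elsewhere. The log2 change of 0.62 (SE 0.0919, edgeR adjusted p = 2.7e-07) became 0.42, under the fold limit, when library totals replaced TMM, a scaling that moved the median of all genes in LS neurons by -0.20. Their values lay above those of OPCs (88.8, 88.3, 102 and 103 CPM), which in turn lay above OLs (68.0, 73.9, 72.0 and 73.6 CPM). Microglia (116, 117, 164 and 209 CPM, log2 0.59) and neuroblasts (119, 111, 145 and 212 CPM, log2 0.68) were also called higher, but without the BALB/c library these changes were 0.40 and 0.39. Astrocytes were called lower, at 57.1, 63.3, 61.9 and 55.2 CPM (-0.66, SE 0.108, edgeR adjusted p = 2.28e-06), and so were newly forming OLs (73.1, 72.5, 40.9 and 26.8 CPM, -0.60), a call lost without BALB/c (-0.30) or without nude (-0.53).

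Acvr1b, the activin type I receptor, had 2 calls, with class means from 21.2 CPM in newly forming OLs to 61.9 CPM in dividing cells. LS neurons had 42.0, 38.1, 39.2 and 42.4 CPM. Striatal neurons lay just above, without overlap, at 43.7, 45.0, 52.2 and 44.6 CPM (log2 0.53, SE 0.124, edgeR adjusted p = 0.000449), a call lost without BALB/c (0.42) and with library totals (0.32). The lower call in newly forming OLs (20.9, 23.1, 40.9 and 0 CPM, the 0 allowing up to 11.5 CPM; log2 -1.06) was lost on leaving out C57J 1, C57J 2 or BALB/c, with edgeR adjusted p of 0.0902, 0.0665 and 0.0615.

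Acvr1c, the type I receptor for activin B, Nodal and some growth and differentiation factors, was highest of the 10 classes in striatal neurons, at 18.2, 20.6, 13.8 and 18.5 CPM (mean 17.8 against 6.67 elsewhere). That gave a log2 change of 1.91 (SE 0.227, edgeR adjusted p = 4.36e-09). Astrocytes (17.4, 17.0, 9.79 and 8.62 CPM, log2 1.16) and LS neurons (11.7, 10.8, 10.8 and 9.82 CPM, log2 1.11) were called higher too, and astrocytes overlapped with striatal neurons. Medial septal neurons were called lower, at 2.20, 3.25, 1.15 and 1.82 CPM (-1.53, SE 0.374, edgeR adjusted p = 0.000648).

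Among the type II receptors, Acvr2a, which binds activins and several BMPs, was highest of the 10 classes in striatal neurons. They had 160.4, 151, 148 and 146 CPM (mean 151 against 78.0 elsewhere), above all values of medial septal neurons, at 109, 105, 110 and 115 CPM. The log2 changes were 1.20 (SE 0.0943, edgeR adjusted p = 9.96e-14) and 0.68 (SE 0.0990, edgeR adjusted p = 2.66e-07), and the latter was 0.49 with library totals. LS neurons came lower, at 84.8, 82.7, 83.2 and 90.5 CPM, and were not called. OLs were called lower, at 52.9, 53.4, 52.3 and 31.2 CPM (-0.83, SE 0.116, edgeR adjusted p = 1.21e-07), BALB/c being well under the other libraries. Newly forming OLs were called lower as well (62.7, 59.3, 49.1 and 26.8 CPM, -0.69), which became -0.47 without BALB/c.

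Acvr2b, the other activin type II receptor, was highest of the 10 classes in dividing cells, at 53.2, 45.6, 99.4 and 101 CPM (mean 74.7 against 25.6 elsewhere; log2 1.30, SE 0.176, edgeR adjusted p = 1.67e-07). Neuroblasts overlapped with them at 43.8, 58.7, 33.5 and 61.8 CPM (log2 0.84, edgeR adjusted p = 0.000495). Astrocytes were called lower, at 14.5, 17.9, 22.2 and 19.7 CPM (-0.63, SE 0.118, edgeR adjusted p = 2.08e-05), overlapping with LS neurons at 15.1, 17.7, 20.02 and 20.9 CPM.

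Bmpr2, the BMP type II receptor, had no class call, with 0 of 10 contrasts past the limits. Its class means ran from 139 CPM in newly forming OLs to 275 CPM in dividing cells, and its log2 changes from -0.44 to 0.31. Astrocytes were at 204, 199.6, 206 and 199 CPM and LS neurons at 146, 136, 149 and 151 CPM, so the astrocyte values lay above the LS values in every library.

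The next question was whether LS neuron types differ in their receptors. LS neurons fell into 18 subclusters, and 34 of 162 receptor contrasts were called (18 higher, 16 lower), each subcluster against the mean of the other 17. Over all genes 13.3% were called (7.39% higher, 5.95% lower). Acvr1c gave 10 calls, Acvr1 9, Acvr2a 6, Tgfbr1 4, Acvr2b 3 and Bmpr1b 2, while Acvr1b, Bmpr1a and Bmpr2 gave 0. Tgfbr2 did not pass the filter on low counts, with subcluster means of 0.223 to 1.53 CPM.

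**Figure D3:**
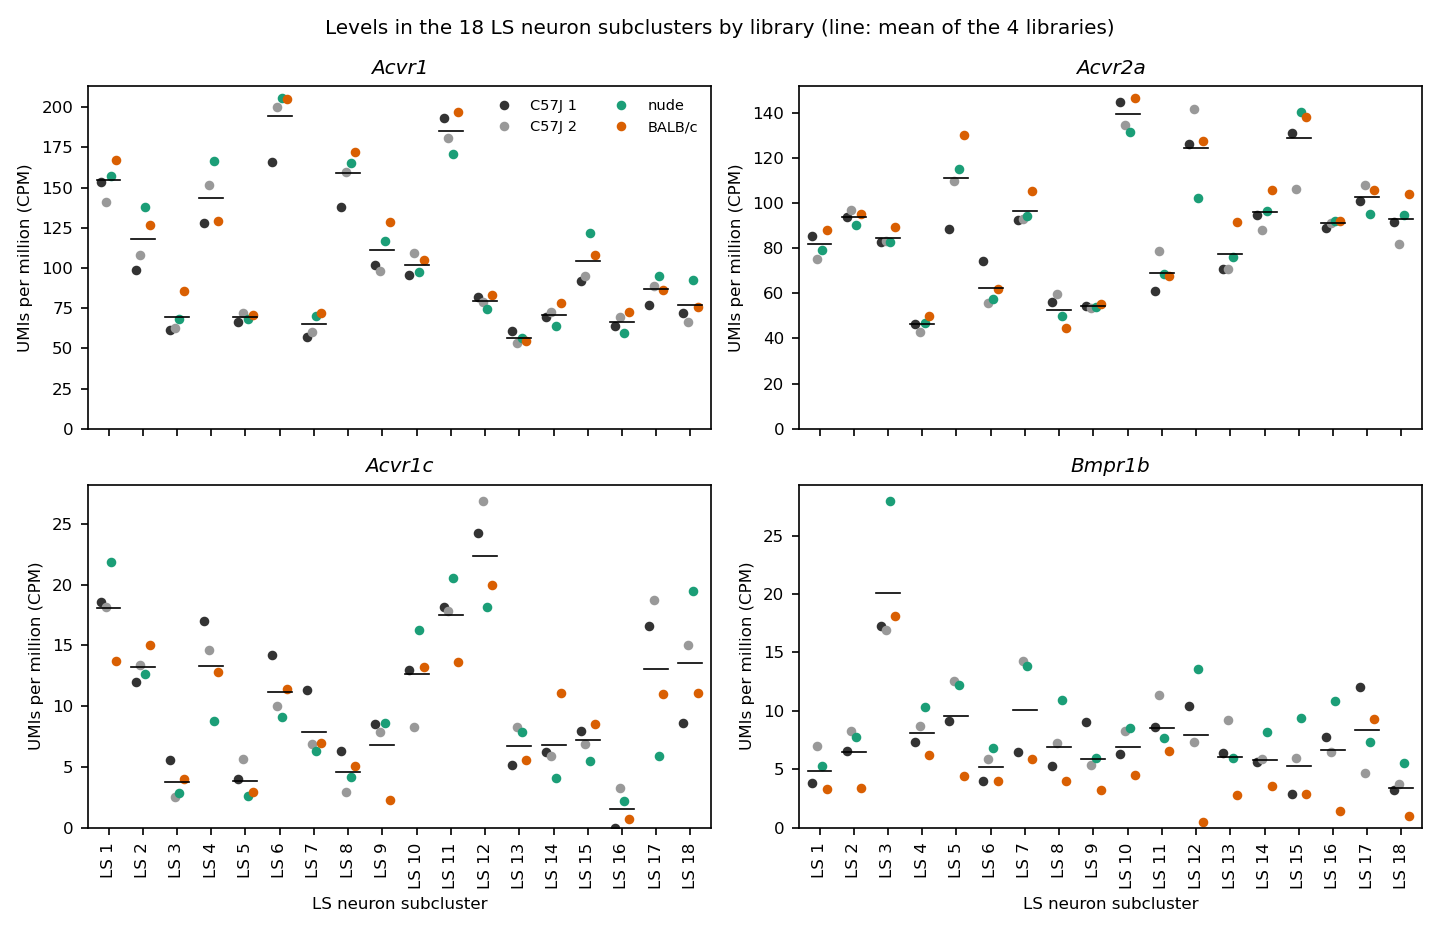
Level of Acvr1, Acvr2a, Acvr1c and Bmpr1b (CPM) in the 18 LS neuron subclusters, each point a library and each bar the mean of 4. Acvr1 is highest in LS 6 and LS 11, Acvr2a in LS 10 and lowest in LS 4, Acvr1c highest in LS 12, and Bmpr1b in LS 3.

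Acvr1 was called higher in 5 subclusters and lower in 4. It was highest in LS 6, led by Dach2 and the corticotropin-releasing hormone receptor gene Crhr2, at 166, 200.4, 206 and 205 CPM (log2 1.07, SE 0.0519, edgeR adjusted p = 6.92e-29), and in LS 11, led by Met and Ddr2, at 193, 181, 171 and 197 CPM (log2 1.01, SE 0.0544, edgeR adjusted p = 2.58e-26). LS 8, led by Col6a3, followed at 138, 160.0, 165 and 172 CPM, and LS 1, led by Col15a1, at 154, 141, 157 and 167 CPM, with log2 changes of 0.80 and 0.72. Called lower were LS 13 (60.8, 53.2, 56.3 and 54.5 CPM, -0.84), LS 7, led by the oestrogen receptor gene Esr1 (57, 60.4, 70.4 and 71.8 CPM, -0.78), and LS 5 (66.3, 72.0, 68.5 and 70.7 CPM, -0.67), beside LS 16, described with Foxp2. No library of the 4 high subclusters overlapped with any of these lower ones.

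The parathyroid hormone receptor gene Pth2r led LS 4 and LS 17. The study itself names Acvr1 among the markers of such neurons on these samples, so the following is not independent evidence of that direction. Acvr1 in LS 4 was 128, 151, 167 and 129 CPM (log2 0.52, SE 0.0544, edgeR adjusted p = 1.04e-12), just over the fold limit and under it without C57J 2 (0.48) or nude (0.47). In LS 17 it was 76.9, 89.1, 95.1 and 86.3 CPM, with a log2 change of -0.29, so all 4 values of LS 17 lay below those of LS 4. LS 4 held the least Acvr2a, at 46.3, 43.0, 46.7 and 49.9 CPM (mean 46.5 against 91.6; -0.96, SE 0.0642, edgeR adjusted p = 5.15e-21), whereas LS 17 had 101, 108, 95.1 and 106 CPM and was not called.

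Foxp2, a forkhead transcription factor gene, led LS 3 and LS 16. Bmpr1b in LS 3 was 17.2, 16.9, 28.0 and 18.1 CPM (mean 20.1 against 6.82; log2 1.69, SE 0.138, edgeR adjusted p = 4.64e-17), above the values of the next subcluster in all libraries, while LS 16 had 7.74, 6.51, 10.8 and 1.39 CPM. Both were called lower for Acvr1c, at 5.60, 2.52, 2.83 and 3.99 CPM in LS 3 (-1.12, edgeR adjusted p = 1.74e-05) and 0 (allowing up to 2.90), 3.26, 2.17 and 0.696 CPM in LS 16 (-2.67, edgeR adjusted p = 1.56e-05). LS 16 was called lower for Acvr1 too (63.9, 69.5, 59.6 and 72.4 CPM, -0.54, and -0.49 without nude).

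Acvr1c was highest in LS 12, led by Pax6 and Eya4, at 24.2, 26.9, 18.2 and 20.001 CPM (log2 1.47, SE 0.183, edgeR adjusted p = 3.06e-10). LS 1 (18.5, 18.1, 21.9 and 13.7 CPM, log2 1.17) and LS 11 (18.2, 17.8, 20.6 and 13.6 CPM, log2 1.11) shared both high Acvr1c and high Acvr1. LS 2, LS 4 and LS 10 were called higher by 0.69, 0.63 and 0.59, of which LS 4 was lost without C57J 1 (edgeR adjusted p = 0.0614) and LS 10 without nude (0.45). LS 5 and LS 8 were called lower, by -1.41 and -0.85, the latter lost without C57J 2 (edgeR adjusted p = 0.0672).

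Acvr2a was highest in LS 10, at 145, 134, 132 and 147 CPM (log2 0.72, SE 0.0523, edgeR adjusted p = 3.72e-19). LS 15 (131, 106, 140.2 and 138 CPM, log2 0.67) and LS 12 (126, 142, 102 and 128 CPM, log2 0.61) were also called higher. Beside LS 4, the lower calls were LS 8 (56.0, 59.6, 49.8 and 44.8 CPM, -0.71) and LS 9 (54.4, 53.4, 53.8 and 55.4 CPM, -0.64). LS 8 and LS 4 thus had Acvr1 called higher and Acvr2a called lower in the same neurons. For Acvr2b, LS 9 was called lower at 7.94, 12.2, 11.6 and 14.3 CPM (-0.69, SE 0.125, edgeR adjusted p = 4.18e-06), LS 12 higher by 0.58 (0.37 without C57J 1), and LS 18 lower by an edgeR adjusted p of 0.0444 that was lost on leaving out C57J 1, nude or BALB/c.

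Of the 4 Tgfbr1 calls, only LS 12, at 4.85, 8.14, 8.57 and 2.86 CPM (-0.89, SE 0.248, edgeR adjusted p = 0.00337), held whichever library was left out. LS 18 had 11.8, 5.02, 31.5 and 21.2 CPM (log2 0.78), and this became 0.41 without nude. The calls in LS 9 and LS 10 were likewise lost without C57J 1, and the lower Bmpr1b call in LS 1 without C57J 1 or nude.

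Levels across the study's strains formed the third comparison, the nude and BALB/c libraries together against both C57J libraries. The spread within the arms, on which these tests rest, includes the difference between nude and BALB/c and that between the C57J batches. The study compared nude and BALB/c with C57J by a score of a TGF-beta receptor signalling gene set, chosen on these samples. It reported that activity as enhanced across LS neuron types. A score of a gene set is a different measure from single receptor genes tested between libraries. No receptor was called in any class by edgeR, 0 of 87 contrasts, with 11 at an unadjusted p below 0.05 and 1 called by DESeq2. Over all genes 0.596% of contrasts were called by edgeR (2.28% in LS neurons, 0.0079% in OLs). Shares of all genes at an unadjusted p below 0.05, or called by DESeq2, are not given here. The counts at those limits therefore do not show an excess in the receptors. In 29 of the 87 both BALB/c background libraries lay above both C57J libraries and in 13 below, against 15.2% and 22.5% over all genes. In the 18 LS subclusters 0 of 155 were called (13 at an unadjusted p below 0.05; 1.13% of all genes called), with 47 above and 10 below without overlap, against 17.4% and 23.1% over all genes.

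**Figure D4:**
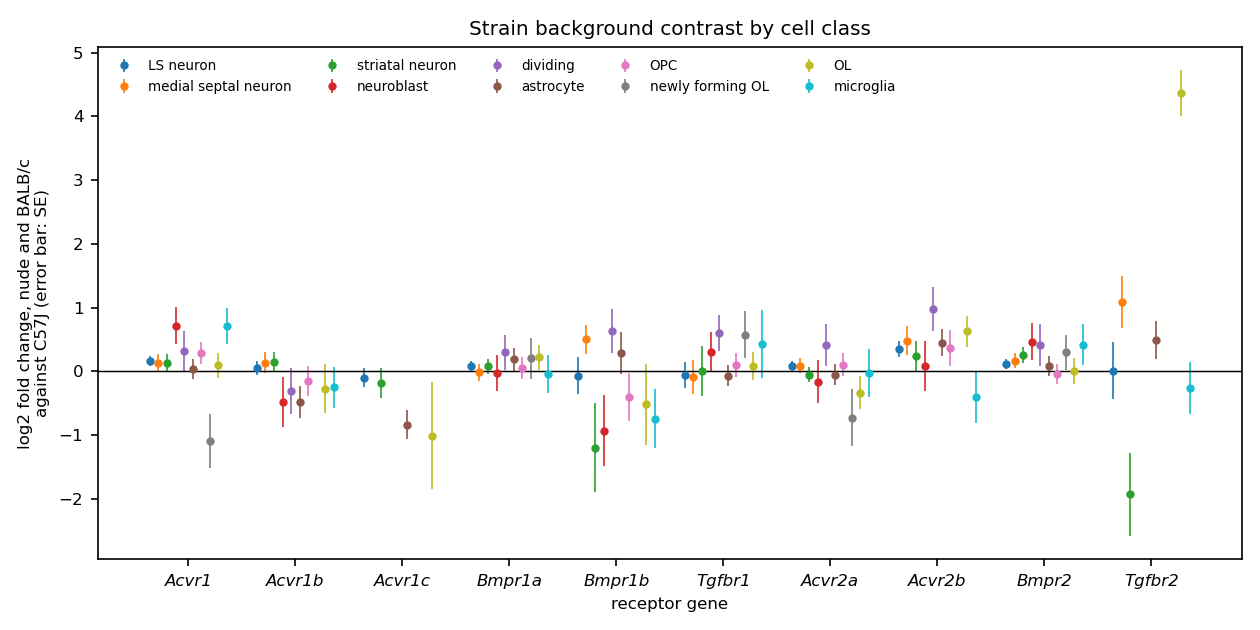
Log2 change of each receptor gene, nude and BALB/c against C57J, with an SE derived from the test statistic, in each class where it was tested. Tgfbr2 in OLs (4.36) lies far from the rest, and no value was called.

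Tgfbr2 in OLs was the exception in size. The OLs held 10, 12, 123 and 502 UMIs of it, or 3.07, 4.03, 57.9 and 81.6 CPM. Both BALB/c background libraries lay far above both C57J libraries, within the second batch too, where C57J 2 had 4.03 CPM. The log2 change was 4.36 (SE 0.359), with an unadjusted edgeR p of 1.63e-05 and an adjusted p of 0.0643, just over the threshold. Over 10 alternatives the change ran from 4.02 to 4.65 and edgeR or DESeq2 adjusted p from 1.33e-27 to 0.611, with a call in 6. Without the BALB/c library it was 4.02 (edgeR adjusted p = 0.000776), and without C57J 1 it was 4.19 (edgeR adjusted p = 0.611). In each of these fits 1 arm is a lone library, assumed to vary like the others.

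The same split was seen in OL subclusters 0, 4 and 12. OL 0 had 3.71, 6.69, 59.6 and 63.5 CPM, the BALB/c value resting on 5 UMIs in 30 nuclei, and OL 4 had 3.39, 1.19, 64.6 and 87.4 CPM. OL 12 had 0, 0, 33.6 and 24.2 CPM, where a count of 0 allowed up to 6.88 and 6.14 CPM. OL 7, nearly all of it from BALB/c, had 0, 0, 35.2 and 84.1 CPM, but its C57J values rest on 17 nuclei and 1 nucleus, where 0 allowed up to 67.0 and 1409 CPM, and the nude value on 2 UMIs. Of OL nuclei, 0.783% (exact 95% interval 0.376 to 1.44), 0.850% (0.440 to 1.48), 10.4% (8.65 to 12.3) and 25.6% (23.4 to 27.9) had a Tgfbr2 UMI at median depths of 2334, 1899, 1688 and 3804.5 UMIs, and 0.556%, 0.432%, 6.04% and 7.99% did at 1000 UMIs. LS neurons of the same libraries, deeper and with the lowest level of the gene, had 0.588% to 0.781%, and 0.0918% to 0.156% at 1000 UMIs, under the share in OLs of the same library. The nude OLs were shallower than either set of C57J OLs.

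**Figure D5:**
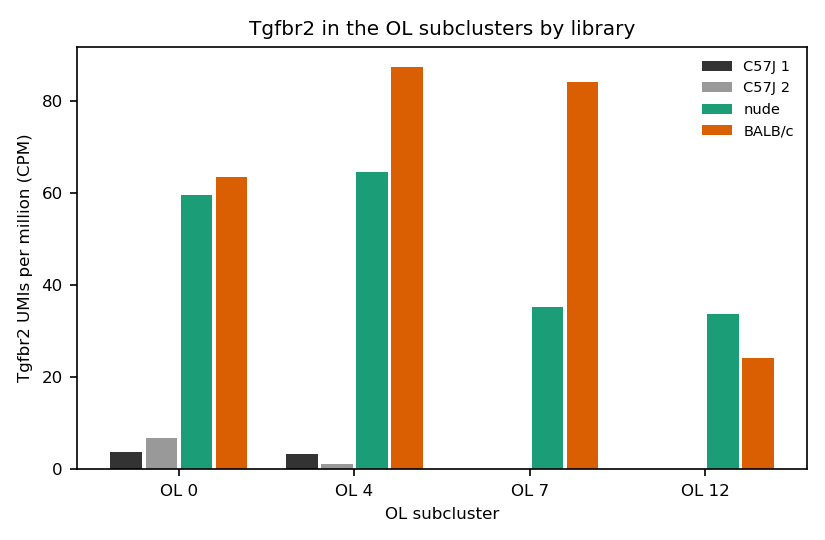
Tgfbr2 level (CPM, bars from 0) in the 4 OL subclusters, a bar for each library. Every nude and BALB/c bar, from 24.2 to 87.4 CPM, exceeds every C57J bar, of which the highest is 6.69 CPM.

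Microglia, the class with the most Tgfbr2, had a strain change of -0.26 for it (SE 0.406, edgeR adjusted p = 0.955). Microglia markers summed to 88.9, 108, 104 and 57.8 CPM in OLs, lowest in BALB/c. In OL nuclei with no UMI of those markers, chosen after the data were seen, Tgfbr2 was at 3.51, 4.34, 58.3 and 83.4 CPM. Those nuclei were most of the class (1023 of 1277, 1123 of 1411, 935 of 1128 and 1200 of 1506), so their values could hardly differ from it. Tgfbr1, the partner of Tgfbr2, lay between 46.1 and 53.0 CPM in OLs of all 4 libraries. The part of microglial RNA in the OL Tgfbr2 levels was not tested. The test of a different strain change in OLs and LS neurons gave 4.43 for Tgfbr2 (SE 0.66, unadjusted p = 0.000272, edgeR adjusted p = 0.31), and none of the 30 such receptor tests was called (0.00548% of all genes were called for OLs, 0.0988% for OPCs and 0% for astrocytes).

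No other strain value of a receptor was called either, which does not show that the levels were equal. Acvr1 in LS neurons was 0.16 higher (edgeR adjusted p = 0.381) and Acvr2b 0.35 higher (edgeR adjusted p = 0.258), with both BALB/c background libraries above both C57J libraries for each gene. Acvr2b estimates were positive in 8 of 9 classes and in 15 of 18 LS subclusters, Acvr1 in 9 of 10 and 17 of 18, and Bmpr2 in 9 of 10 and 16 of 18, with none called. For Acvr1b, 6 of 9 class and 4 of 18 subcluster estimates were negative, and for Acvr2a 6 of 10 and 4 of 18. For Bmpr1b they were 6 of 9 and 9 of 13, and for Tgfbr1 3 of 10 and 12 of 18. Bmpr1a had 3 of 10 and 5 of 18 negative, and Tgfbr2 had 2 of 6 classes. The share of positive estimates over all genes is not given here. Acvr1c estimates were negative in 4 of 4 classes, but in the LS subclusters 11 of 16 were negative and 5 positive. Among the classes, the largest Acvr1c gap without overlap was in astrocytes, at 17.4, 17.0, 9.79 and 8.62 CPM (-0.84, SE 0.229, edgeR adjusted p = 0.467). The subclusters are subsets of the same 4 libraries, so these counts are not independent.

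The other genes of the pathway, 76 in 5 lists, were called in 181 of 470 class contrasts (107 higher, 74 lower), where 30.3% of all genes were (16.5% higher, 13.8% lower). By list, co-receptors were called in 12 higher and 8 lower of 50, ligands in 28 and 16 of 120, secreted inhibitors and latent binding proteins in 30 and 20 of 110, Smads and regulators in 26 and 20 of 140, and targets in 11 and 10 of 50. In microglia 1 of 12 ligand genes was called higher and 4 lower, where 34.4% of all genes were called in either direction. The higher one, Tgfb1, had a mean of 93.2 CPM there (log2 7.33), Nrros, which anchors latent TGF-beta on microglia, 82.3 CPM (6.00), and the co-receptor gene Eng 37.6 CPM (5.74). In the Smads and regulators, 6 of 14 were higher and 1 lower in microglia, with Tgif1, a repressor of TGF-beta responses, at 15.3 CPM (5.47) and the inhibitory Smad6 at 11.5 CPM (4.31).

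Over the 10 classes, 11 of 50 contrasts of target genes were called higher, and no response to BMP was measured. Astrocytes had several of the target genes at higher levels, beside Bmpr1b and Bmpr1a. Of 5 target genes tested, 4 were called higher, where 35% of all genes were called in either direction, with a list median of 2.68 against 0.02 over all genes: Id1 (4.35 CPM, log2 3.05), Id3 (19 CPM, 2.83) and Id4 (262 CPM, 2.68), all dominant-negative regulators induced by BMPs, were among them. Rgma, a BMP co-receptor, was at 239 CPM (3.36) and Ltbp1, which binds latent TGF-beta, at 115 CPM (3.33). In the OL lineage, the ligand gene Bmp4 was at 156 CPM in newly forming OLs (8.33), and the inhibitory Smad7 at 274 CPM in OLs (3.03) and 175 CPM in newly forming OLs (2.38). OPCs had the ligand genes Bmp7 (39.9 CPM, 3.81) and Inhbb (13.9 CPM, 3.96).

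In neurons, LS neurons were called higher for the ligand gene Bmp6 (26.6 CPM, 2.81) and for Chrdl1, a secreted BMP antagonist (8.20 CPM, 1.86). Striatal neurons were called higher for Inhba, which encodes the activin A subunit (20.4 CPM, 2.22), beside their high Acvr2a and Acvr1c. Medial septal neurons were called higher for the BMP antagonist gene Chrd (10.4 CPM, 2.18). Between LS subclusters 163 of 684 contrasts were called, where 13.3% of all genes were. Bmp6 ran from 2.14 CPM in LS 11 (-3.06) to 75.4 CPM in LS 13 (2.54). Fst, the activin-binding follistatin gene, was at 12.2 CPM in LS 6 (3.49).

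Finally, each receptor was set beside the genes with the most similar levels, by Pearson correlation of log2(mean CPM + 1) over 28 groups (10 classes and the 18 LS subclusters, which overlap with the LS class and share libraries) among 10951 genes. Tgfbr2 was most like Tcirg1 (r = 0.94), Bmp2k (0.94) and Grn (0.93), and Tgfbr1 most like Wasf2 (0.95), Rab3il1 (0.95) and Msh5 (0.94), while the pair itself had r = 0.86. Bmpr1b was most like Acsbg1 (0.94), Slc25a21 (0.93) and Slc7a11 (0.93). Bmpr1a was most like Ezr (0.90), the BMP target Id4 (0.88) and Gli1 (0.86). Acvr2b had Cbx1 (0.91), Casp2 (0.90) and Rrm1 (0.90), and Bmpr2 had Arhgap12 (0.92), Kansl1 (0.92) and Numa1 (0.91). Weaker likeness was found for Acvr1b, with Tsen15 (0.84), Zmynd11 (0.83) and Ube3c (0.80), for Acvr1, with Abracl (0.81), Actr3 (0.81) and Ube2ql1 (0.79), for Acvr2a, with Rab3c (0.73), Scmh1 (0.71) and Sms (0.70), and for Acvr1c, with Icam5 (0.63), Abl2 (0.60) and Gabra2 (0.60).

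By the GRCm38 annotation, Acvr1 (chr2:58388644-58567157, minus), Acvr1c (chr2:58267453-58357895, minus) and Acvr2a (chr2:48814109-48903269, plus) lie on 1 chromosome, the Acvr1 and Acvr1c genes close together. Tgfbr2 (chr9:116084293-116175360, minus) and Acvr2b (chr9:119402118-119434995, plus) share another. Tgfbr1 is at chr4:47353222-47414931 (plus), Bmpr1b at chr3:141837136-142169425 (minus), Bmpr1a at chr14:34410734-34503341 (minus), Acvr1b at chr15:101174067-101213684 (plus) and Bmpr2 at chr1:59763400-59879014 (plus). On the same strand, Acvr1b overlaps with Mir6962 and Bmpr2 with Gm38125, so their counts are less certain. Genes of the opposite strand overlap with Acvr1, Acvr1c, Bmpr1a, Acvr2a and Acvr2b, from which their reads cannot be told apart if strand was not used, and none overlaps with Bmpr1b, Tgfbr1 or Tgfbr2.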

How the data were processed

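Nuclei of pooled LS tissue were sequenced with 10x 3′ chemistry, and the authors deposited raw UMI counts per gene and nucleus for 4 libraries, made with Cell Ranger 7.0.1 on mm10 per the submitters' notes. Intron and strand handling are not given in the sources used here. Nuclei with 200 to 6000 genes, 300 to 50000 UMIs and at most 2% mitochondrial UMIs were kept, 6235 predicted doublets were removed by simulation, and nuclei were clustered (Leiden, leidenalg 0.10.2, Python 3.11.15) into 32 clusters and named by markers. Counts were summed per library and class, for classes with at least 20 nuclei in every library, and tested with edgeR 4.0.16 (R 4.3.3; filterByExpr, TMM, quasi-likelihood, Benjamini-Hochberg over all genes), with the library as a term except between strains. The SE printed with a log2 change was derived from the test, as the absolute change over the square root of its F statistic. DESeq2 1.42.0, library totals, no filter, a stricter nucleus filter, thinning to 1000 UMIs, kept doublets, other clusterings and leaving out each library were alternatives. Tests were checked on simulated data, where the strain test missed many of the smaller changes put in. The receptors and lists were chosen with earlier results of these data known. All 10 receptors are named, with at most 3 called genes of a list per contrast and 3 most similar genes per receptor. Some pathway results are not reported here. Exact 95% intervals, and the limits that a count of 0 allows (3 counts), cover counting error only.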

Additional observations from a re-analysis of the deposited data

How the results depend on the processing

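The call in the strain contrast for receptors depended on the setting: 0 in the fit as reported, 1 with DESeq2, 2 with no filter on low counts, 1 with predicted doublets kept, 1 when thinned to 1000 UMIs, and 0 to 7 on leaving out 1 library. The 7 arose without nude: Tgfbr2 in OLs, Bmpr1b in astrocytes (0.70), OLs (-1.72) and neuroblasts (-2.51), Acvr1b in astrocytes (-0.78), and Acvr1 in microglia (0.89) and neuroblasts (0.98). There the lone BALB/c library, the deepest and the one that stood apart, is assumed to vary like the others, as is the lone library of each such fit. Without C57J 1 the call was Bmpr1b in striatal neurons (-1.94). The cause was not tested. Shares of all genes called between strains in these other settings are not given here. These counts of strain calls therefore say nothing particular to the receptors. Of the 32 class calls, 25 to 31 were also called on leaving out 1 library, 29 with library totals and 31 with DESeq2, and of the 34 calls in LS subclusters, 27 to 32, 34 and 33. When thinned to 1000 UMIs, 20 of the 28 class calls that could be tested were called; those lost were Bmpr1b in dividing cells, LS neurons (where the estimate had no usable error) and striatal neurons, Acvr2b in astrocytes, Tgfbr1 in neuroblasts, Acvr1b in striatal neurons and newly forming OLs, and Acvr1 in the latter. With that thinning 13 receptor calls were made in LS subclusters, 11 of them among the 18 of the 34 that could still be tested, and the estimates of Acvr1b in newly forming OLs (0.071) and Acvr2b in LS 18 (0.18) reversed, neither being called. Library totals moved the median of all genes by 0.36 in dividing cells, 0.28 in microglia and 0.16 in neuroblasts, and by -0.21 in striatal and -0.19 in medial septal neurons. No paired analysis was possible because the labels number the C57J libraries alone, so no replicate number is shared across groups.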

Other observations

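Vascular and lining cells were too few to test and are given as pooled values with exact Poisson 95% intervals, which cover counting error only. In 53 endothelial nuclei Bmpr2 was at 693 CPM (560.4 to 847), and the endothelial receptor genes Acvrl1 and Eng were at 139 CPM (83.4 to 216) and 321 CPM (233 to 431). In 62 fibroblasts Tgfbr1 was at 236 CPM (171 to 317), Tgfbr2 at 129 CPM (82.5 to 192) and the ligand gene Bmp6 at 1925 CPM (1731 to 2135). In 80 mural nuclei Tgfbr2 was at 61.7 CPM (31.9 to 108). Bmpr1a was at 219.9 CPM (158 to 298) in the fibroblasts and 206 CPM (147 to 280.1) in the mural nuclei. BALB/c gave 38 of the fibroblasts, 21 of the endothelial and 25 of the mural nuclei, and nude 9, 3 and 3. From BALB/c came 71 of the 95 endothelial Bmpr2 UMIs. In fibroblasts it gave 34 of the 44 Tgfbr1 UMIs and 19 of the 24 Tgfbr2 UMIs. The 21 ependymal nuclei, 20 of them from C57J 1, had 160.0 CPM of Tgfbr2 (89.6 to 264).

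Of the single neuron clusters, 15 and 26 were picked out after their values were seen. Cluster 15, left unnamed and led by Onecut2 and Dach1, had 62.1, 59.1, 52.9 and 32.9 CPM of Acvr1c, above all LS subclusters. Cluster 26, a striatal cluster with Drd3 and Tac1 among its leading genes and made of 320, 53, 31 and 26 nuclei, had 222, 203, 169 and 398 CPM of Acvr2a.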
